A study of Mus musculus with 15 samples.

Results

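The 10 genes described here lie near Cldn10 on mouse chromosome 14 (GRCm38), the gene of claudin-10a, which the knockout label names. They are Tgds, Gpr180, Abcc4, Dnajc3, Uggt2, Mbnl2, Rap2a, Ipo5, Farp1 and Tmtc4. They were chosen by name from the genes near Cldn10, with earlier results of these data known. They make up 10 of the 54752 genes in the count table. Other tested genes of the same stretch, some of them closer to Cldn10 than Tmtc4, were not chosen. The libraries come from dissected mouse kidney tubules and fall in 4 groups: proximal convoluted tubule of wild-type mice (n = 4) and of Cldn10a knockout mice (n = 3), and distal convoluted tubule of wild-type mice (n = 4) and of Cldn10a knockout mice (n = 4). Per the labels, 10 proximal or about 20 distal tubules were pooled per kidney, no other treatment is named, and strain and age are not stated. The labels do not say whether each library is a different animal, nor whether proximal and distal pools share mice, so the tests below speak of the spread among libraries, which may be technical.

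Claudins are the tight junction proteins that set which ions pass between epithelial cells, and claudin-10a forms an anion-selective pore in the proximal tubule. A gene knocked out in mice is carried with the DNA around it, so genes on the same stretch of chromosome are inherited together with the altered allele. The neighbours themselves have unrelated roles. Abcc4 (MRP4) is an ATP-driven exporter of organic anions and cyclic nucleotides on the brush border of the proximal tubule. Dnajc3 (p58IPK), Uggt2 and Tmtc4 act in the endoplasmic reticulum, Mbnl2 is a muscleblind splicing factor, Rap2a is a small GTPase, Ipo5 is a nuclear import receptor, Farp1 carries a FERM domain and a RhoGEF domain, Tgds is named as a dTDP-glucose dehydratase by its sequence, and Gpr180 is a membrane protein.

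In order along the chromosome, Tgds (chr14:118111911-118132755) and Gpr180 (chr14:118137158-118163261) lie 655.2 and 624.6 kb before Cldn10 (chr14:118787908-118875489). Abcc4 (chr14:118482692-118706219) lies 81.7 kb before it. Dnajc3 (chr14:118937976-118981697) lies 62.5 kb after it and Uggt2 (chr14:118985039-119099430) 109.6 kb after it. Mbnl2 (chr14:120275669-120431697), Rap2a (chr14:120478444-120507194), Ipo5 (chr14:120911224-120947999) and Farp1 (chr14:121035200-121283744) lie 1.4, 1.6, 2.04 and 2.16 Mb after it. Tmtc4 (chr14:122918971-122984035) is the most distant, at 4.04 Mb. Abcc4, Tgds, Uggt2 and Tmtc4 are on the minus strand, and the others and Cldn10 on the plus strand.

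The promoters of Abcc4, Tmtc4 and Dnajc3 are shown because these 3 genes had knockout libraries above all wild-type libraries in proximal tubule. Each RefSeq window (GRCm38.p6) runs from 250 bases before to 50 after the start, 5′ to 3′ on the gene's strand. RefSeq windows were matched for 9 of the 10 genes, and where a gene had more than 1 the window farthest upstream on its strand is shown. Capitals mark matches, on either strand, to the letter patterns searched. The first was CCAAT, a common promoter box. The second was CCACG, which stands in the endoplasmic reticulum stress element when it follows the first after 9 bases. The third was CACGTG, an E-box, and the fourth was TATAA. The last was TGAC followed by 3 bases and GC, the core of an antioxidant response element. The Abcc4 window is chr14:118706170-118706469 on the minus strand, Tmtc4 chr14:122983234-122983533 on the minus strand and Dnajc3 chr14:118937682-118937981 on the plus strand.
Abcc4: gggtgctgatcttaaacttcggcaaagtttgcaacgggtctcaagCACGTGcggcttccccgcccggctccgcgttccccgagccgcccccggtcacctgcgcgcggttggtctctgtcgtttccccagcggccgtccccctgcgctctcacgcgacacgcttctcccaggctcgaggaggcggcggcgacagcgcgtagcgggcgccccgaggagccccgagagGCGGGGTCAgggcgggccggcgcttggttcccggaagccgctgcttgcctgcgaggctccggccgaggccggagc
Tmtc4: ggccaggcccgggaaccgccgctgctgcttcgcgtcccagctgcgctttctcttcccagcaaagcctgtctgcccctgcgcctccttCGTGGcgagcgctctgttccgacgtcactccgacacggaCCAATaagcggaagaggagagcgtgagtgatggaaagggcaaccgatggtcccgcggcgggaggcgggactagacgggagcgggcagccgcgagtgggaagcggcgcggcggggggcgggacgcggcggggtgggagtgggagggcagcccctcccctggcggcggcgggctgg
Dnajc3: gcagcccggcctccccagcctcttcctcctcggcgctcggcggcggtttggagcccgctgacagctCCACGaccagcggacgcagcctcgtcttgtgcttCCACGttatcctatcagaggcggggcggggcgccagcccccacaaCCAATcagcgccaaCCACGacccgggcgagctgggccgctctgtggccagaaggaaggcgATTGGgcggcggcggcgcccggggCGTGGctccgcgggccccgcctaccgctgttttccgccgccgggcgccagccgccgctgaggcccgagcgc
The 3 windows shown are rich in G and C, at 72.7%, 72.3% and 74.3% in that order, against a median of 52.7% over all 32851 windows of the table. They hold 41, 36 and 39 CG dinucleotides, against a median of 7. This was not particular to them: the windows farthest upstream of Ipo5 and Rap2a had 80.7% and 77.7%, with 47 CG dinucleotides each. Uggt2 had 71.7% with 30, Gpr180 65.3% with 29, Tgds 57.3% with 21 and Mbnl2 56.3% with 10. The Abcc4 window has CACGTG, found in 7.15% of all windows, and 1 TGAC followed by 3 bases and GC on the opposite strand, found in 12.4%. A second Abcc4 window (chr14:118676882-118677181), at 47.3% G and C with 6 CG dinucleotides, lacks CACGTG. The Tmtc4 window shown has 1 CCAAT and, on the opposite strand, 1 CCACG, letter patterns found in 37.4% and 32.8% of windows. Windows of Gpr180, Uggt2 and Ipo5 also have CCAAT and CCACG, and that of Mbnl2 has TGAC followed by 3 bases and GC. The Dnajc3 window has the CCAAT with its CCACG 9 bases on, starting 105 bases before the RefSeq start, which is not the annotated gene start given above. That pair was in 0.119% of all windows. The second Tmtc4 window (chr14:122983093-122983392), at 75.3% G and C, has no match to these patterns. A match is a run of letters and shows no binding.

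The library totals ran from 28729339 to 51764746 counts (median 42660626), of which 8.02% to 19.7% fell on nuclear protein-coding genes. This share was 12.5% to 19.7% in proximal and 8.02% to 11.6% in distal libraries, and its part in the results was not tested. All 10 genes passed the filter on low counts in every comparison, and levels are given as CPM, counts scaled to a common library size, after 1 scaling of all 15 libraries. The labelled segments matched their markers: the summed level of 13 early proximal markers was 4920 to 5930 CPM in proximal and 22.3 to 35.9 CPM in distal libraries, and that of 12 distal convoluted markers 25.5 to 36.6 and 4850 to 6590 CPM. Cldn10 itself had 541 to 1514 counts in the 4 wild-type proximal libraries (21.5 ± 8.66 CPM, SD) and 0 counts in all 3 knockout proximal libraries. In distal tubule it had 3 to 22 counts in wild type and 0 to 24 in knockout, 0.23 ± 0.185 and 0.236 ± 0.291 CPM (SD, n = 4 each), so it checks the genotype labels of the proximal libraries only.

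Abcc4 was the neighbour that rose in knockout proximal tubule. Its levels were 13.8, 9.57, 10.5 and 9.07 CPM in wild-type replicates 1, 2, 3 and 6, and 18.3, 32.6 and 27 CPM in knockout replicates 4, 5 and 7. Every knockout library lay above every wild-type library. The mean went from 10.7 ± 2.15 CPM to 26 ± 7.23 CPM (SD, n = 4 and 3), a log2 change of 1.24 ± 0.21 (SE; 95% interval 0.78 to 1.7; limma adjusted p = 0.0381). Abcc4 was 1 of 13 genes called higher in knockout, 0.0983% of the 13229 tested, at a Benjamini-Hochberg adjusted p under 0.05.

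The Abcc4 call rested on nearly every library. It was lost without wild-type replicate 1 (adjusted p = 0.0914), 2 (0.137), 3 (0.125) or 6 (0.0764), and without knockout replicate 5 (0.0719) or 7 (0.0874), but held without knockout replicate 4 (0.0446). The log2 change itself ran from 1.06 to 1.45 across these. Proximal wild-type replicate 6 and knockout replicate 7 carry label numbers of another series than the rest; what the series stands for is not stated. Within the main series (3 wild-type, 2 knockout) the knockout to wild-type ratio of mean CPM was 2.25, and within the other (1 against 1) it was 2.97. With the series as a covariate the adjusted p was 0.0515, and without replicates 6 and 7 it was 0.143.

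As a group, knockout proximal libraries also had higher levels of straight proximal segment markers. This marker list was chosen with earlier results of these data known. The summed level of 13 such markers was 338 to 588 CPM in wild-type and 984 to 1060 CPM in knockout proximal libraries, and none of the 13 was at 0 in either group. Wild-type replicates 1, 2, 3 and 6 had 441, 545, 338 and 588 CPM of markers, beside 13.8, 9.57, 10.5 and 9.07 CPM of Abcc4. Knockout replicates 4, 5 and 7 had 984, 998 and 1060 CPM of markers, beside 18.3, 32.6 and 27 CPM. Within each genotype the order of libraries thus differed between markers and Abcc4. Of 12 markers tested, 12 had a change above 0 (median 1.21) and 2 were called. Atp11a, a phospholipid flippase, rose from 39.1 ± 14.6 to 115 ± 12.5 CPM (log2 change 1.62, adjusted p = 0.027), and Acy3, an aminoacylase, from 231 ± 44.3 to 506 ± 115 CPM (1.12, adjusted p = 0.0381). Of 13 early proximal markers, 2 were above 0 and 11 below (median −0.29) with 0 called, and their sum was 4940 to 5930 CPM in wild type and 4920 to 5240 CPM in knockout. The summed endothelial markers were 14.7 to 27.8 CPM in wild type and 23.3 to 42.7 CPM in knockout, 12 of 12 above 0 and 0 called. The part of any of these in the Abcc4 difference was not tested. In dissected pools, fewer cells of a type and less RNA per cell cannot be told apart.

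**Figure D1:**
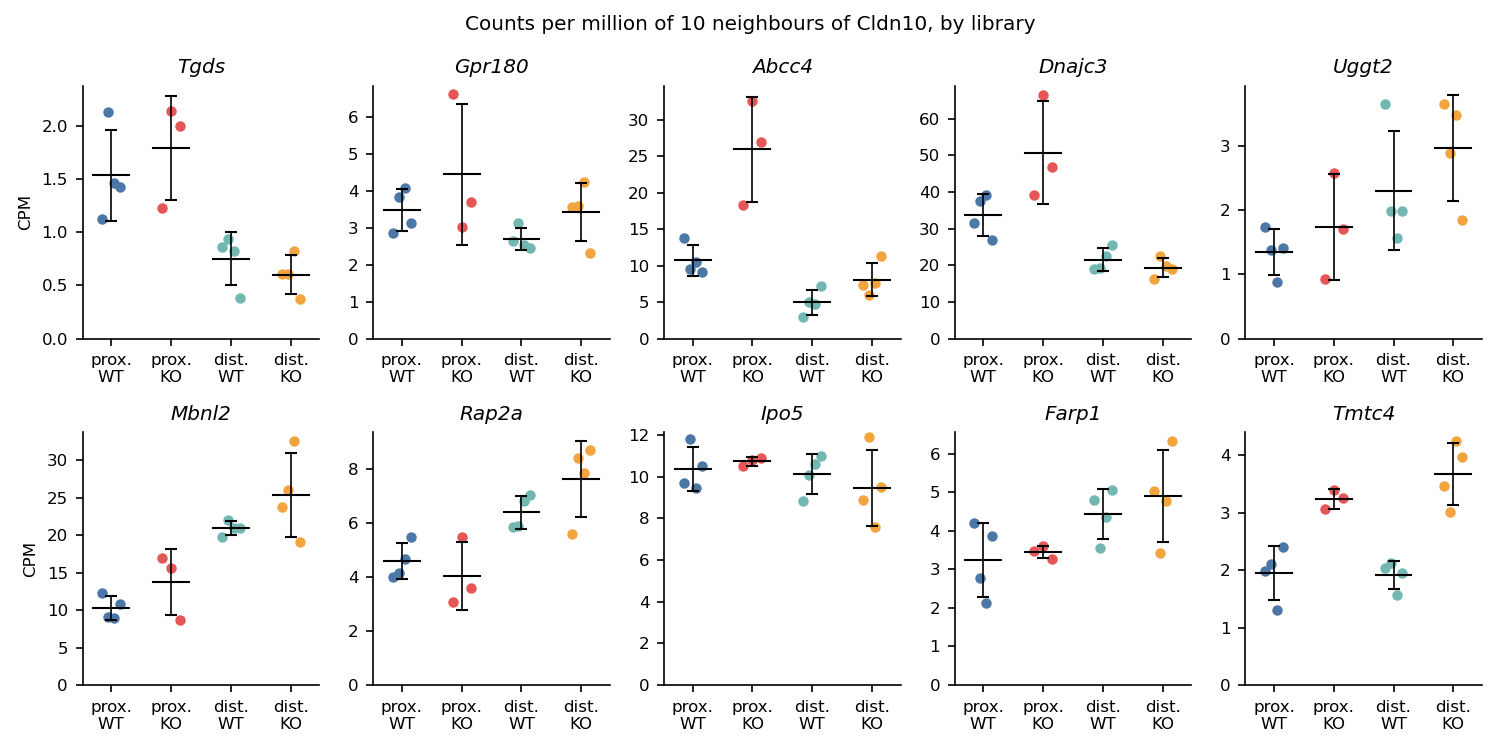
CPM of each of the 10 genes in the 15 libraries, in chromosome order; points are libraries, horizontal bars group means and error bars SD (n = 4, 3, 4 and 4). Abcc4 in knockout proximal libraries sits at 18.3 to 32.6 CPM against 9.07 to 13.8 CPM in wild type, and Tmtc4 is higher in knockout in both segments.

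Among the neighbours of the endoplasmic reticulum, Tmtc4 and Dnajc3 also had knockout libraries above all wild-type ones in proximal tubule, but neither passed the test. Tmtc4, a mannosyltransferase that glycosylates cadherins, had 1.98, 2.11, 1.31 and 2.41 CPM in wild-type libraries, and 3.06, 3.4 and 3.26 CPM in the knockout. Its log2 change was 0.77 ± 0.26 (SE; adjusted p = 0.468). Dnajc3, a co-chaperone that inhibits the stress kinase PERK, had 31.5, 37.4, 39.1 and 26.8 CPM in wild-type libraries, and 39.1, 66.4 and 46.7 CPM in the knockout. Its lowest knockout library and its highest wild-type library both round to 39.1 CPM, and the log2 change was 0.56 ± 0.2 (adjusted p = 0.502). Uggt2, a glucosyltransferase that senses misfolded glycoproteins, had 1.35 ± 0.356 and 1.73 ± 0.833 CPM in the 2 genotypes, with overlapping groups (log2 change 0.31 ± 0.38).

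The remaining neighbours had overlapping groups in proximal tubule. Mbnl2 ranged from 9 to 12.3 CPM in wild-type libraries and from 8.74 to 16.9 CPM in the knockout (log2 change 0.36 ± 0.23). Within the main series of label numbers its ratio was 1.61 and within the other 0.811, in opposite directions. Rap2a was the neighbour with a change below 0, at −0.22 ± 0.24, from 4.59 ± 0.673 to 4.04 ± 1.26 CPM. Gpr180 had a change of 0.25, Tgds of 0.23, Farp1 of 0.14 and Ipo5 of 0.05, each smaller than its SE of 0.27, 0.32, 0.26 and 0.16. In all, 9 of the 10 had a change above 0 (median 0.28), against 48.4% of all tested genes (median −0.015). Every knockout library lay above every wild-type library in 3 of the 10, against 4.44% of all tested genes. Since the 10 were picked with earlier results of these data known, these counts are a description.

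In distal tubule 0 of the 10 passed the test. Over all 12969 genes tested, limma called 0 (0%), and 925 had an unadjusted p under 0.05. Tmtc4 had 2.03, 2.13, 1.57 and 1.95 CPM in wild-type replicates 1 to 4 and 3.46, 3.02, 4.25 and 3.97 CPM in knockout replicates 5 to 8. Every knockout library lay above every wild-type library, as in 2.01% of all tested genes. The mean was 1.92 ± 0.242 CPM for wild type against 3.68 ± 0.545 CPM for knockout, a log2 difference of 0.94 ± 0.23 (unadjusted p = 0.000606, rank 11; limma adjusted p = 0.582). Abcc4 had 3, 4.99, 4.8 and 7.21 CPM in wild-type libraries, and 7.37, 5.96, 7.66 and 11.4 CPM in the knockout, and these groups overlapped. Its log2 difference was 0.69 ± 0.24 (unadjusted p = 0.0085; limma adjusted p = 0.67).

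Dnajc3 in distal tubule ranged from 18.9 to 25.4 CPM in wild-type libraries and from 16.2 to 22.4 CPM in the knockout, a log2 difference of −0.16 ± 0.15. Uggt2 had a difference of 0.42 ± 0.28, Gpr180 of 0.31 ± 0.23, Mbnl2 of 0.24 ± 0.15, Rap2a of 0.23 ± 0.18 and Farp1 of 0.14 ± 0.21. Tgds and Ipo5 were below 0, at −0.27 ± 0.44 and −0.12 ± 0.16. So 7 of the 10 picked genes were above 0 (median 0.24), against 49.1% of all tested genes (median −0.006), again a description. Among other cell types in these pools, summed endothelial markers were 60.1 to 82.2 CPM in wild type and 51.5 to 57.6 CPM in knockout, with 0 of 12 above 0. Principal and intercalated cell markers were 299 to 398 and 179 to 353 CPM, with 0 of 11 tested above 0 (median −0.36). Thick ascending limb markers were 390 to 631 and 530 to 668 CPM, with 6 of 7 above 0 (median 0.52). None of these markers was called. Straight proximal markers were 33.4 to 37.2 and 31.2 to 45 CPM. Their part in the differences of Tmtc4 and Abcc4 was not tested.

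**Figure D2:**
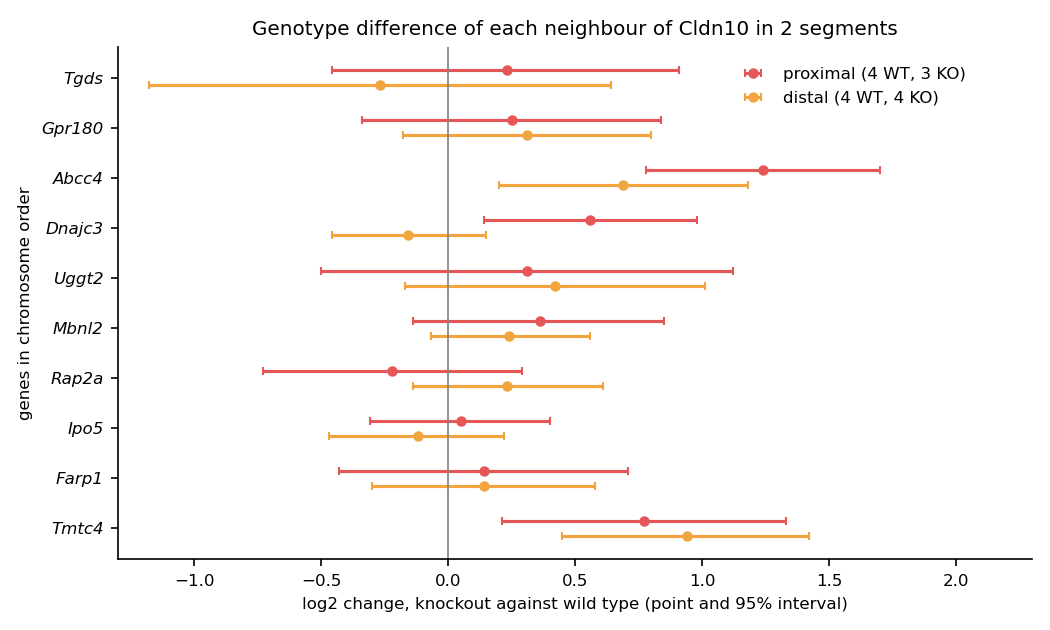
Log2 change of each neighbour, knockout against wild type, with its 95% interval, in proximal (4 against 3 libraries) and distal tubule (4 against 4), genes in chromosome order. The intervals of Abcc4 and Tmtc4 lie above 0 in both segments, and that of Dnajc3 lies above 0 in proximal tubule and spans 0 in distal tubule.

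Setting the segments side by side, 6 of the 10 genes had a change above 0 in both, against 26.4% of the 11610 genes tested in both. An unadjusted p under 0.05 with a higher level in knockout in both segments was found for 17 of those 11610 genes (0.146%), and 2 of the 17 were Abcc4 and Tmtc4. The labels do not say whether the segments share mice, so these are not separate tests of the 2 genes. The 10 were picked with earlier results of these data known, so their counts against all genes are a description. Averaged over both segments in 1 fit of 15 libraries, Abcc4 had a log2 change of 0.97 ± 0.17 (SE; rank 3 of 15279; limma adjusted p = 0.0623) and Tmtc4 of 0.86 ± 0.16 (rank 5; adjusted p = 0.0875). Of the 10, 8 were above 0 (median 0.25) and 0 passed, while 2 other genes did (0.0131%): Lpl, lipoprotein lipase, at 1.22, and Gsta4, a glutathione transferase, at −1.21, named after their values were seen. Abcc4 passed when proximal wild-type replicate 1 (adjusted p = 0.0288), distal wild-type replicate 4 (0.031) or proximal knockout replicate 4 (0.0129) was left out.

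The genotype effect was also compared between segments, and 0 of the 10 genes and 0 of all 15279 (0%) passed limma's test, with 849 at an unadjusted p under 0.05. Dnajc3 had the widest gap, 0.73 ± 0.25 on the log2 scale higher in proximal tubule (unadjusted p = 0.00745; adjusted p = 0.695). For Abcc4 the difference was 0.57 ± 0.35, with a 95% interval of −0.15 to 1.29. For Tmtc4 it was −0.16 ± 0.33, with a 95% interval of −0.84 to 0.52. These intervals do not show that the segments responded alike.

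Distance from Cldn10 was set against the change. Of the 116 annotated genes within 5 Mb in the count table, 35 are protein-coding and 52 had no count in any library. Within 1 Mb, 7 genes were tested in proximal tubule and 7 had a change above 0 (median 0.559). These were the 5 closest neighbours and 2 more: Dzip1, a cilium-related gene that lies 0.031 kb beyond the end of Cldn10, at 0.95 ± 0.58 (adjusted p = 0.764), and the pseudogene Gm6087 at 0.73 ± 0.64 (adjusted p = 0.843). Both were named after their values were seen. From 1 to 5 Mb, 8 of 18 were above 0 (median −0.051), among them Tmtc4. In distal tubule 4 of 7 genes within 1 Mb were above 0 (median 0.007), and from 1 to 5 Mb 10 of 18 (median 0.006). In the average over segments 10 genes within 1 Mb were tested, 6 above and 4 below 0 (median 0.146, from −2.56 to 0.97). The lowest was Gm49768, a lincRNA 108 kb from Cldn10, at −2.56 ± 0.85 (limma unadjusted p = 0.00625, adjusted p = 0.475). It was named after its value was seen. From 1 to 5 Mb it had 10 of 22 above 0 (median −0.035).

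The 15 other tested genes within 5 Mb give the background of the same stretch. In proximal tubule 6 of these 15 were above 0 (median −0.092), none was called and 0 had an unadjusted p under 0.05. In distal tubule 7 of their 15 were above 0 (median −0.098), and 1, Slc15a1, a peptide transporter, had an unadjusted p under 0.05, at −1.62 ± 0.49 (adjusted p = 0.662; named after its value was seen). In the average over segments 8 of 22 other tested genes within 5 Mb were above 0 (median −0.085). Of these 22, 2 had an unadjusted p under 0.05 in limma's test, and 0 of the 2 were higher in knockout. The rest of chromosome 14 had medians of −0.008 over 450 genes in proximal and 0.029 over 420 genes in distal tubule. Since the 10 genes were picked with earlier results of these data known, their counts against this background are a description.

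**Figure D3:**
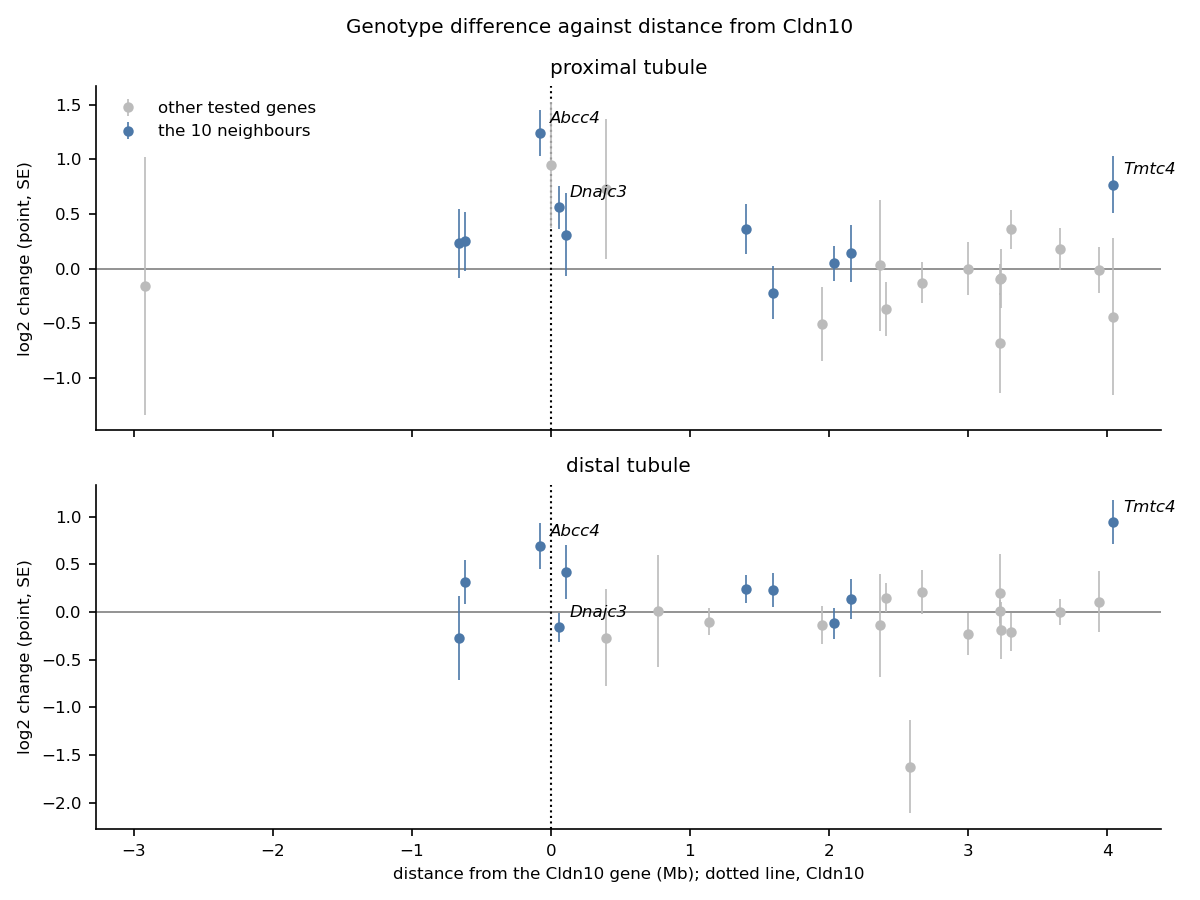
Log2 change (point) with SE (bar) of every tested gene within 5 Mb of Cldn10 against its distance in Mb, in proximal (top) and distal tubule (bottom); blue points are the 10 neighbours and grey points the other genes. In proximal tubule the 7 genes within 1 Mb are all above 0, and Tmtc4 at 4.04 Mb stands among genes near or below 0.

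Tgds, Uggt2, Mbnl2 and Tmtc4 overlap exons of a gene on the opposite strand, and the strand setting of the counting is not given in the sources used here. The overlapping genes had few counts: 0 to 12 for Gm26773 (Tgds), 0 to 5 for Gm16835 (Uggt2), 0 to 14 for Gm26679 (Mbnl2) and 0 to 28 for 4930594M22Rik (Tmtc4). The last was tested in proximal tubule and had a log2 change of −0.44, against 0.77 for Tmtc4. Values of these 4 neighbours are uncertain for this reason. How reads in shared exons were counted is not given, so the low counts of the overlapping genes do not bound the error.

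In wild type, 5 of the 10 neighbours were called between segments, 3 higher in proximal and 2 higher in distal tubule. These shares are near those of all genes, given beside each count. Abcc4 was higher in proximal tubule by 1.08 ± 0.22 on the log2 scale (limma adjusted p = 0.000517), from 5 ± 1.73 CPM in distal to 10.7 ± 2.15 CPM in proximal tubule (SD, n = 4 each). Dnajc3 was higher in proximal tubule by 0.63 ± 0.14 (adjusted p = 0.00134), at 33.7 ± 5.6 against 21.5 ± 3.08 CPM. Tgds was higher by 1.08 ± 0.36 (adjusted p = 0.0196), at 1.54 ± 0.429 against 0.753 ± 0.249 CPM. Thus 3 of the 10 were called higher in proximal tubule, against 23.6% of 13616 genes tested.

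Mbnl2 and Rap2a were the neighbours called lower in proximal tubule, 2 of 10 against 25.1% of all genes. Mbnl2 was 19.7, 22, 21 and 21 CPM in distal and 12.3, 9.05, 9 and 10.8 CPM in proximal wild-type libraries, a log2 difference of −1.05 ± 0.13 (limma adjusted p = 3.72e-06). Rap2a was 6.4 ± 0.613 CPM in distal and 4.59 ± 0.673 CPM in proximal tubule (−0.51 ± 0.16, adjusted p = 0.015). Uggt2 (−0.71, adjusted p = 0.0599), Farp1 (−0.51, 0.0735), Gpr180 (0.35, 0.16), Ipo5 (0.01) and Tmtc4 (−0.03) did not pass. Summed endothelial markers were 14.7 to 27.8 CPM in proximal and 60.1 to 82.2 CPM in distal wild-type libraries, and their part in these differences was not tested. The call of Tgds was lost without proximal wild-type replicate 2 (adjusted p = 0.0539) or distal wild-type replicate 4 (0.0875), and that of Rap2a without proximal wild-type replicate 1 (0.0503). Without proximal wild-type replicate 1 or distal wild-type replicate 3, Uggt2 passed (0.0476 and 0.0365), and without proximal wild-type replicate 1 or distal wild-type replicate 2, Farp1 did (0.0347 and 0.0457).

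Per length, on a scale of CPM per kb of exon, Dnajc3 was the most abundant of the 10 in wild-type proximal tubule, at 6.55 ± 1.09 (SD, n = 4). Gpr180 (1.86 ± 0.302), Ipo5 (1.73 ± 0.177) and Abcc4 (1.68 ± 0.336) followed, with overlapping SD ranges. Differences between genes were not tested. Rap2a (1.09), Mbnl2 (0.857), Tgds (0.63) and Farp1 (0.587) came next, and Tmtc4 (0.236 ± 0.0563) and Uggt2 (0.105 ± 0.0279) were lowest. In wild-type distal tubule Dnajc3 was again highest, at 4.18 ± 0.599 CPM per kb. Mbnl2 (1.75 ± 0.0798) and Ipo5 (1.68 ± 0.155) were next, with overlapping SD ranges, and Tmtc4 (0.232) and Uggt2 (0.18) were lowest. In knockout proximal tubule Abcc4 stood at 4.06 ± 1.13 CPM per kb, second to Dnajc3 at 9.87 ± 2.74.

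The lists around each neighbour's role gave few calls. Of 38 genes of endoplasmic reticulum folding and the unfolded protein response tested in proximal tubule, 23 were above 0 and 0 were called (median 0.08), with Tmtc4 and Dnajc3 the lowest p. In distal tubule 14 of 37 were above 0 and 0 were called (median −0.13), and P4hb, protein disulfide isomerase, had −0.36 ± 0.13 (adjusted p = 0.67). So the list, which holds Tmtc4, Dnajc3 and Uggt2, had medians near 0 in both segments, where all genes had −0.015 and −0.006. In wild type, 12 of these 38 genes were called higher in proximal and 2 in distal tubule, against 23.6% and 25.1% of all genes. Edem1, which directs misfolded glycoproteins to degradation, led at 1.62 ± 0.16 and Herpud1 had 1.58 ± 0.28. Of those higher in distal tubule, Selenos had −0.78 ± 0.15.

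Among 7 Abcc family members tested in proximal tubule, 1 was called, Abcc4 itself. Abcc6 went from 1.01 ± 0.454 to 0.509 ± 0.0969 CPM in the knockout (−0.92 ± 0.49, adjusted p = 0.737). Abcc2 (MRP2), an apical exporter, was called higher in proximal than in distal wild type (8.55 ± 0.49, adjusted p = 9.69e-10). Abcc1 was called lower there (−7.28 ± 0.67, adjusted p = 1.68e-07). Among 23 karyopherins, the nuclear import and export receptors to which Ipo5 belongs, 0 were called in either segment. Kpna4, an importin alpha, had 18.6 ± 3.29 and 32.8 ± 4.57 CPM in proximal tubule (0.81 ± 0.18, adjusted p = 0.135). Kpna2 went the other way there (−0.43 ± 0.21, adjusted p = 0.71). Of 18 Rap GTPases and regulators, 12 were above 0 and 0 called in proximal tubule, where Map4k4, a kinase, had 1.16 ± 0.32 (adjusted p = 0.26). Of 6 muscleblind, CELF and related splicing factors tested in each segment, 5 were above 0 and 0 called, with medians of 0.27 and 0.26. Of 3 TMTC mannosyltransferases, Tmtc1 had 0.34 ± 0.59 (adjusted p = 0.925) and Tmtc4 had the lowest p in both segments. Of 10 FERM and RhoGEF relatives of Farp1, 6 were above 0 in proximal and 8 in distal tubule, with 0 called.

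**Figure D4:**
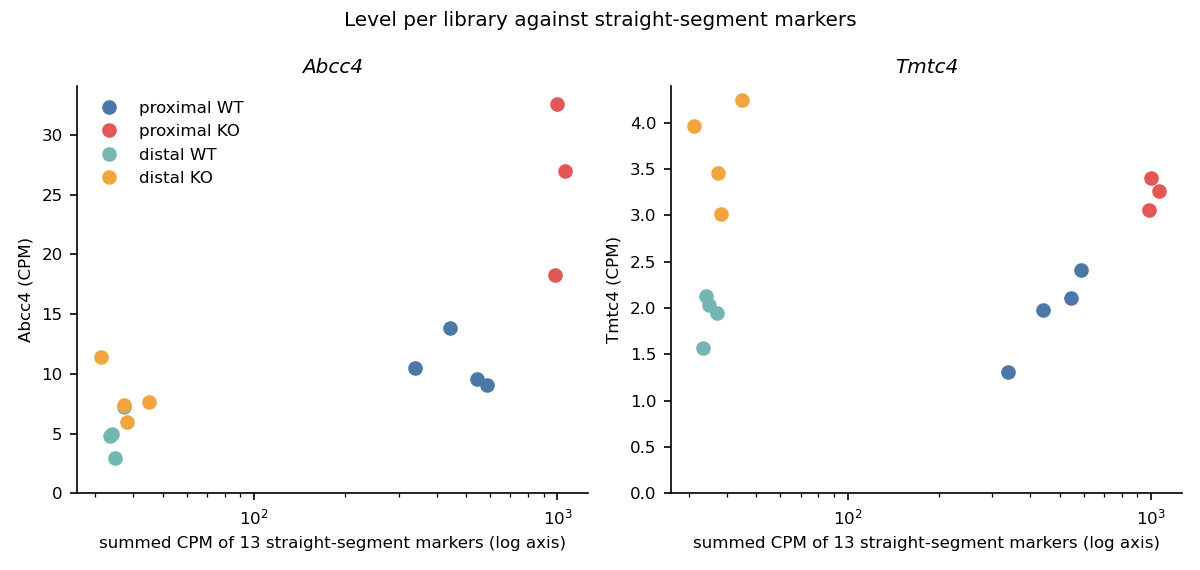
CPM of Abcc4 (left) and Tmtc4 (right) in each of 15 libraries against the summed CPM of 13 straight proximal markers, on a log axis; colours are the 4 groups. The 3 knockout proximal libraries lie at 984 to 1060 CPM of markers with 18.3 to 32.6 CPM of Abcc4, and distal libraries, at 31.2 to 45 CPM of markers, separate by genotype for Tmtc4 at 1.57 to 2.13 against 3.02 to 4.25 CPM.

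The authors' deposited tables give their own fold changes without stating their direction. In the authors' deposited table for proximal tubule the sign was read from Cldn10, which stands at −12.22. In the authors' deposited table for distal tubule Cldn10 stands at 0.04 and gives no sign. There each neighbour's change had the sign found here for knockout against wild type, among them Dnajc3 at −0.15 and Tgds at −0.32. The direction of that table was read from these signs. In the authors' deposited table for proximal tubule Abcc4 had 1.26 (adjusted p 2.71e-05), Tmtc4 0.72 (0.448) and Dnajc3 0.57 (0.284). In the authors' deposited table for distal tubule Tmtc4 had 0.94 (adjusted p 0.0868) and Abcc4 0.69 (0.395). Of the genes with an adjusted p there, 136 of 14748 and 3 of 7181 were under 0.05.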

How the data were processed

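RNA from dissected mouse proximal and distal convoluted tubules, isolated with a micro column kit and made into libraries with Nextera XT per the labels, was sequenced in 15 libraries on GRCm38. Tools named in the submitters' processing notes are STAR 2.5, CASAVA 1.8 and DESeq2 1.24.0. How reads were counted, with which annotation release and with regard to strand, is not given in the sources used here. The authors deposited a table of whole-number counts per gene and 2 tables of log2 fold changes with p-values and adjusted p-values, which served only for the values named as theirs. The deposited count table's all-digit column names kept it from being recorded as counts, so its unit is recorded as other. The whole numbers were analysed with limma 3.58.1 in R 4.3.3, with voom weights on log2 CPM (prior 0.5) and trimmed-mean scale factors (30% of log ratios, 5% of intensities). Genes were kept with about 10 counts (scaled by depth) in at least the smallest group's number of libraries and 15 in total; Cldn10 was exempt. Calls had a Benjamini-Hochberg adjusted p under 0.05. Libraries held 28729339 to 51764746 counts; no columns were identical (Pearson r 0.959 to 0.982).

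The 5 comparisons were knockout against wild type in each segment, their difference, their average, and proximal against distal in wild type. Named were the 10 neighbours and Cldn10, called genes within 5 Mb, and some of the genes that a rule picked from each list. That rule took called genes (up to 4) or the 2 with the smallest p, and not all of them are named. Genes named for their values outside this rule are marked in the text. Members and lists were chosen with earlier results of these data known. The steps were tested on simulated data. The depth speaks to counting error only. Alternatives were other scaling, filters, weights, library sizes, thresholds, fits, label series, a replicate block and leaving out each library.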

Additional observations from a re-analysis of the deposited data

How the results depend on the processing

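Scaling, filters, weights, library sizes without mitochondrial genes, the threshold, the set of libraries fitted and the label series were varied, all as planned. Of the 10 neighbours, Abcc4 passed the test in proximal tubule in 7 of 9 such alternatives (log2 change 1.09 to 1.26); the count called was 0 with the label series as a covariate and 0 without proximal replicates 6 and 7, the libraries of the other label series. In distal tubule 0 were called in all 7. In the average over segments 1 passed under the stricter filter and 2 at an adjusted p under 0.1. Calls over all genes in proximal tubule went from 22 to 80 with no filter, 36 with the stricter filter, 40 with sample quality weights, 46 at an adjusted p under 0.1 and 123 in 1 fit of 15 libraries. With no filter they were 4 in distal tubule, 1 for the difference between segments and 5 for the average. For the average they were 5 with the stricter filter, 4 with quality weights, 6 at an adjusted p under 0.1 and 6 without replicates 6 and 7, and for the difference 2 without these, where its median over the neighbours was 0.16. Changes near 0 turned sign: Gpr180 (0.1) in the difference, Rap2a (−0.08) in the average and Tmtc4 (0.01) between segments, all with quality weights, and Farp1 in the difference without mitochondrial genes (−0.01) or with the series covariate (−0.02). The cause of these moves was not tested.

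Leaving out each library in turn, the neighbours called in proximal tubule were 0 to 1, calls over all genes 2 to 18, and the neighbours' median 0.16 to 0.36; the average gave 0 to 1 neighbours and 2 to 4 genes, and the difference 0 to 1 genes. The median in wild type between segments was −0.06 to 0.14. Ranges that crossed 0 in proximal tubule were Ipo5 −0.01 to 0.11, Farp1 −0.07 to 0.28, Gpr180 −0.08 to 0.47 and Uggt2 −0.02 to 0.64. In the difference they were Uggt2 −0.43 to 0.25, Farp1 −0.2 to 0.15, Gpr180 −0.35 to 0.18 and Mbnl2 −0.05 to 0.42. In the average they were Rap2a −0.1 to 0.09, Tgds −0.19 to 0.1 and Ipo5 −0.1 to 0.01, and between segments Ipo5 −0.04 to 0.08 and Tmtc4 −0.13 to 0.19.

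Proximal and distal wild-type libraries share the numbers 1, 2 and 3. The correlations of same-numbered deviations were −0.0149, −0.0524 and 0.0429, and 1 of 3 numbers matched its own best. Correlations over 3 numbers, between different segments, cannot tell whether same-numbered pools came from the same mice. The fit with a replicate block kept only replicates 1, 2 and 3, so it left out proximal replicate 6 and distal replicate 4. It called 5 neighbours between segments and 5974 genes over all. The main fit called 23.6% of all genes higher in proximal and 25.1% higher in distal tubule. With the block Tgds did not pass (limma adjusted p = 0.0791) and Uggt2 did (0.0415). The part of the block and of the left-out libraries in these changes was not tested. The genotype groups share no replicate numbers within a segment.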
